A study of Homo sapiens with 9 samples.

Results

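Mitochondrial ribosomal protein genes were described in A549, an established lung cancer cell line. They were the protein-coding genes of the count table whose symbol was MRPL or MRPS followed by a number, with or without a final letter. By this rule there were 78 genes among the 58735 listed, of which 49 were MRPL and 29 were MRPS. A549 cells had been transfected with the control plasmid (PC3.1 in the text of the study, and PC3.1, PC3.2 and PC3.3 in the treatment labels), with a plasmid carrying LINC00996, or with a plasmid carrying AP001189.3, which the labels call RP11. Each group had 3 RNA-seq libraries of poly-A selected RNA. All groups shared the cell line and the transfection, and the overexpression came from a plasmid and not from the endogenous locus.

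Mitochondria keep their own ribosome, which translates the few proteins encoded by mitochondrial DNA, all of them subunits of the respiratory chain and ATP synthase. Its large subunit carries the peptidyl transferase centre and is built mainly of MRPL proteins, and its small subunit binds the mRNA and is built mainly of MRPS proteins. The rRNAs are transcribed in the mitochondrion, while every MRP protein is encoded in the nucleus, made in the cytosol and imported. Some MRP proteins have counterparts in bacterial ribosomes and others are found in mitochondria alone.

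Library totals lay between 15272450 and 18125447 counts. The overexpressed lncRNAs matched the labels. LINC00996 was at 287, 277 and 322 CPM (the counts of a gene scaled to library size) in its own group and at 0.529 CPM or less in the other 6 libraries, and AP001189.3 was at 98.1, 126 and 144 CPM in its own group and at 0.124 CPM or less elsewhere. The summed level of 7 markers of A549 epithelium ranged from 8013 to 11011 CPM over the 9 libraries, while the sums of immune and fibroblast markers did not exceed 13.9 and 4.22 CPM. The sum of 3 endothelial markers was 11.6 to 13.1 CPM in control cells, 5.25 to 6.49 in LINC00996 cells and 7.28 to 9.57 in AP001189.3 cells. Of the A549 markers, 1 was called higher and 2 lower with LINC00996, and 1 higher and 1 lower with AP001189.3. The cadherin CDH1, lower with LINC00996, was at 318 ± 5.44 CPM in control cells and 171 ± 10.1 CPM in LINC00996 cells (SD, n = 3). AKR1B10 was at 717 ± 21.4 CPM in control cells and 1371 ± 13.2 CPM in LINC00996 cells. The part of these changes in the results was not tested. One library stood apart from its group. Replicate 1 of the LINC00996 group differed from the other 2 by a chi-square per gene of 20.1 and 29.7, against 2.21 to 6.70 for the other pairs of replicates, and values without it are given beside the counts of calls and the called genes named in the LINC00996 comparisons.

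The promoters of 6 members are printed first, for the genes to which the results return: the 4 members with the largest fold changes that passed the test in LINC00996 cells, the member whose fall in AP001189.3 cells held in every setting tried, and a member with the NRF1 motif. They were read from RefSeq on GRCh38.p14, which gave a promoter for 69 of the 78 members, and each runs from 250 bases before to 50 bases after the start site, 5′ to 3′ on the strand of the gene. Capitals mark exact matches on either strand to GCATGCGC (core of the motif of NRF1, a regulator of genes for mitochondrial proteins), CCGGAAGT (ETS family, which includes GABPA), AAGATGGC (YY1) and CACGTG (E-box, bound by MYC among others).
MRPL12: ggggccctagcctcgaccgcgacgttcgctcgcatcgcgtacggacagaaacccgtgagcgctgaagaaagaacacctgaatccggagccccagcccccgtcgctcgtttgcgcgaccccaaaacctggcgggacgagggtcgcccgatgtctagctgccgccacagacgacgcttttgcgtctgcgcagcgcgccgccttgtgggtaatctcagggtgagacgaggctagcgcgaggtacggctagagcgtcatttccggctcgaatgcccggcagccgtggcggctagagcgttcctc
MRPL24: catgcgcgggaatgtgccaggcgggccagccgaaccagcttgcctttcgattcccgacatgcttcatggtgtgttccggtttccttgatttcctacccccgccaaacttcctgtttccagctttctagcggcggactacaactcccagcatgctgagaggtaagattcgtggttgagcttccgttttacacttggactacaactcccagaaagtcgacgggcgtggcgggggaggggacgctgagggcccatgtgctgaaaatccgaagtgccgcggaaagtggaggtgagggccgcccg
MRPL51: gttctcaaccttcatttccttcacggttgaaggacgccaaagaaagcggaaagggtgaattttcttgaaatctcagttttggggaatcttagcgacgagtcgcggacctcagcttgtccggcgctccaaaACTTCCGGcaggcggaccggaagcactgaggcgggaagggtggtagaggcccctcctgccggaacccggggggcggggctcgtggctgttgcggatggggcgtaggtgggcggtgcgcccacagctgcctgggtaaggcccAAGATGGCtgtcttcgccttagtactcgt
MRPS34: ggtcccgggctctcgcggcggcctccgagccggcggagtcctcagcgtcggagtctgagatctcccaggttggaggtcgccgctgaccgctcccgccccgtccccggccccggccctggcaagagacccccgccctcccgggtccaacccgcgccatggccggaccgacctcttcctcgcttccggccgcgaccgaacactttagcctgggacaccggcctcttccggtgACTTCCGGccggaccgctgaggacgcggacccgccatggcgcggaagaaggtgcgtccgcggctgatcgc
MRPS22: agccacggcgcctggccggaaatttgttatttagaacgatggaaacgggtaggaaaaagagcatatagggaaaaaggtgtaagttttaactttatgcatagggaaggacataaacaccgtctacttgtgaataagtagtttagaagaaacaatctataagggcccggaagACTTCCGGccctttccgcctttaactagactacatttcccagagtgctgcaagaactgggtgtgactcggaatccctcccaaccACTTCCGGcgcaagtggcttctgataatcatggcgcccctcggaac
MRPL17: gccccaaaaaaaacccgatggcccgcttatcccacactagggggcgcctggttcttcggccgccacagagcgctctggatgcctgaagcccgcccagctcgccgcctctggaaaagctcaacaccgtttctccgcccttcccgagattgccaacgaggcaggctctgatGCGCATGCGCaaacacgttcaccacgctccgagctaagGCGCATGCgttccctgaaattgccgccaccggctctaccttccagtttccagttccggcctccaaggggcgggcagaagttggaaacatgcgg

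The MRPL12 promoter lies at chr17:81703117-81703416 on the plus strand and the MRPL24 promoter at chr1:156741039-156741338 on the minus strand, and neither held any of the 4 motifs. The MRPL51 promoter, chr12:6493213-6493512 on the minus strand, held the ETS motif 120 bases before the start site and the YY1 motif 22 bases after it. In the MRPS34 promoter, chr16:1773085-1773384 on the minus strand, the ETS motif stood 20 bases before the start site. The MRPS22 promoter, chr3:139343744-139344043 on the plus strand, held the ETS motif at 2 places. In the MRPL17 promoter, chr11:6683291-6683590 on the minus strand, the NRF1 core was matched 3 times, 2 of them overlapping each other on opposite strands.

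Over all members with a promoter, the YY1 motif was the most common. It was found in 20 of 69 (29%), against 2.89% of all 35116 promoters in the table. The ETS motif was found in 11 (15.9%, against 4.14%), the NRF1 core in 6 (8.70%, against 3.05%) and the E-box in 6 (8.70%, against 7.26%). The YY1 share was alike in MRPL (28.6%) and MRPS (29.6%), while the ETS motif was present in 9 of 42 MRPL and 2 of 27 MRPS promoters. In all, 30 members held at least 1 motif. A match is a string of letters and not a measured binding site. Promoter windows of MRPL46 and MRPS11 overlap on chromosome 15, where the genes lie head to head with start sites 320 bases apart.

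Levels in control cells were read as CPM per kilobase of gene length, to set genes of different length side by side. This length joins all exons of a gene. It can be far above that of the longest protein-coding transcript, as in MRPL46 (6432 against 1019 bases) and MRPS12 (2144 against 1220). The order of levels below depends on this choice. Of the 78 members, 77 passed the filter on low counts in every comparison. Their control levels ranged from 0.615 to 42.5 CPM per kilobase, with a median of 9.74. The median was 10.1 in the 49 MRPL and 7.98 in the 28 MRPS genes tested. MRPS35, a small subunit protein found in mitochondria alone, was the highest at 42.5 CPM per kilobase, followed by MRPL45 (32.9), which helps to anchor the large subunit to the inner membrane, and MRPL41 (32.3). MRPS12, at the decoding centre, was the second highest MRPS gene (29.5). The lowest tested members were MRPL38 (0.615), MRPL46 (1.15) and MRPS18C (1.70). Of their exonic bases, 41.1%, 11.3% and 40.2% are shared with other genes, and the part of this in their levels was not tested. MRPL12 ranked 67 of 78 with 3.46 CPM per kilobase.

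**Figure D1:**
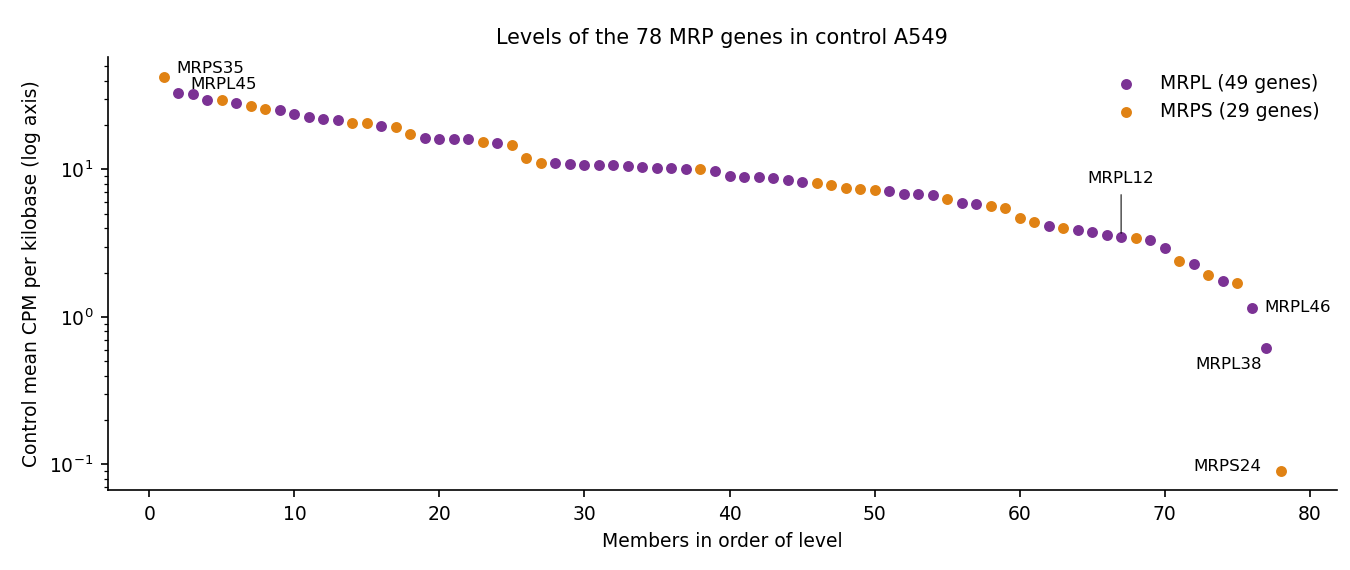
Mean CPM per kilobase of gene length in the 3 control libraries (log axis) for all 78 members in order of level, MRPL in purple and MRPS in orange. The tested members fall in small steps from 42.5 to 0.615, and MRPS24 lies far below them.

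MRPS24 was the member that did not pass the filter. It was counted 2 to 8 times per library, which gave 0.176, 0.249 and 0.288 CPM in control cells, and its groups overlapped. With no filter its log2 fold change was 0.16 (SE 0.834) for LINC00996 and 0.15 (SE 0.859) for AP001189.3 against control. Of its 2613 exonic bases, 23.2% are shared with 1 other gene, a readthrough gene that joins URGCP to MRPS24. How far the counting step set its low value was not tested.

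The first comparison asked how overexpression of LINC00996 changed the transcriptome, here the MRP genes. In the test over all 6 libraries, members were called higher and none was called lower. Tested with edgeR (quasi-likelihood fit, Benjamini-Hochberg adjustment over all genes), 30 of 77 members were higher at an adjusted p under 0.05 (39.0%), against 10.7% of the 16097 genes tested. Called lower were 0 members, against 11.6% of all genes. The remaining 47 did not pass the test. At an unadjusted p under 0.05 there were 40 higher and 0 lower, and DESeq2 called 31 higher and 0 lower. The median log2 fold change of the members was 0.29, that of all genes 0.01, with 65 of 77 members above 0 and 12 below. In 48 members all 3 LINC00996 libraries were above all 3 control libraries (62.3%, against 19.8% of all genes), and in 3 they were all below (3.90%, against 20.7%). With replicate 1 of that group left out, these were 54 (70.1%, against 28.0%) and 7 (9.09%, against 27.9%). The share of counts on mitochondrial DNA moved with the group as well. It was 5.32%, 5.66% and 5.26% in control cells, 6.68%, 7.07% and 7.18% in LINC00996 cells and 5.32%, 5.37% and 5.52% in AP001189.3 cells, so that the LINC00996 libraries lay above all others. Its part in the rise of the members was not tested. CPM are shares of the RNA of a culture, so that more mRNA in each cell and more cells with such mRNA cannot be told apart.

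These counts depended on which libraries entered. Without control replicate 1, 2 or 3, the number of members called higher was 15, 14 or 19, and the share of all genes called higher was 5.59%, 4.84% or 5.52%. Without replicate 1 of the LINC00996 group it was 36, with 15.9% of all genes, and 2 members were then called lower. These were MRPS18A (fell by 0.45 on the log2 scale, SE 0.135) and MRPL46 (fell by 0.49, SE 0.180), named after their values were seen. Of the 30 members called higher, 29 were called without that library too. MRPL57 was the exception.

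MRPL12 had the largest rise. It sits in the stalk of the large subunit, which recruits the translation factors, and has also been described as a partner of the mitochondrial RNA polymerase. Its level was 3.94, 3.67 and 3.05 CPM in control cells (mean 3.55 ± 0.458, SD, n = 3), 31.3, 20.7 and 14.3 CPM in LINC00996 cells (22.1 ± 8.57) and 16.5, 18.7 and 12.5 CPM in AP001189.3 cells (15.9 ± 3.17). Both lncRNA groups were above the control group in every library, and they overlapped each other. The log2 fold change was 2.64 (SE 0.263, adjusted p = 3.67e-05, edgeR) for LINC00996 and 2.16 (SE 0.162, adjusted p = 3.36e-10) for AP001189.3. Without replicate 1 of the LINC00996 group, the first was 2.30. Between the lncRNAs MRPL12 differed by 0.47 (SE 0.241, adjusted p = 0.193), which did not pass the test. The difference was 0.13 without LINC00996 replicate 1 and 0.71 without replicate 3 of that group, and lay between these with any other library left out. It passed the test by edgeR in 3 settings, without LINC00996 replicate 3 (adjusted p = 0.0200), with no filter (0.47, adjusted p = 0.0141) and with an offset for GC content added after the data were seen (0.62, adjusted p = 0.0128). Over all settings tried the adjusted p ranged from 0.0128 to 0.583.

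The MRPL12 values may rest on a small part of the gene. MRPL12 (ENSG00000262814) lies at chr17:81703357-81707526 on the plus strand of GRCh38, with 1028 exonic bases. Of these, 701 (68.2%) are also exonic in AC139530.2, a readthrough gene on the same strand that had 0 counts in all 9 libraries. A read that fits more than 1 gene may be left out by the counting program, and the setting used is not given in the sources used here. The bases that belong to MRPL12 alone are 14 at its 5′ end and the last 313 at its 3′ end, chr17:81707214-81707526. The counts behind the CPM values were 53 to 67 in control cells, 265 to 572 in LINC00996 cells and 206 to 288 in AP001189.3 cells. Whether the rise is the same over the other exonic bases was not tested. No other member had over 50% of its exonic bases shared, which was so for 5.68% of protein-coding genes.

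**Figure D2:**
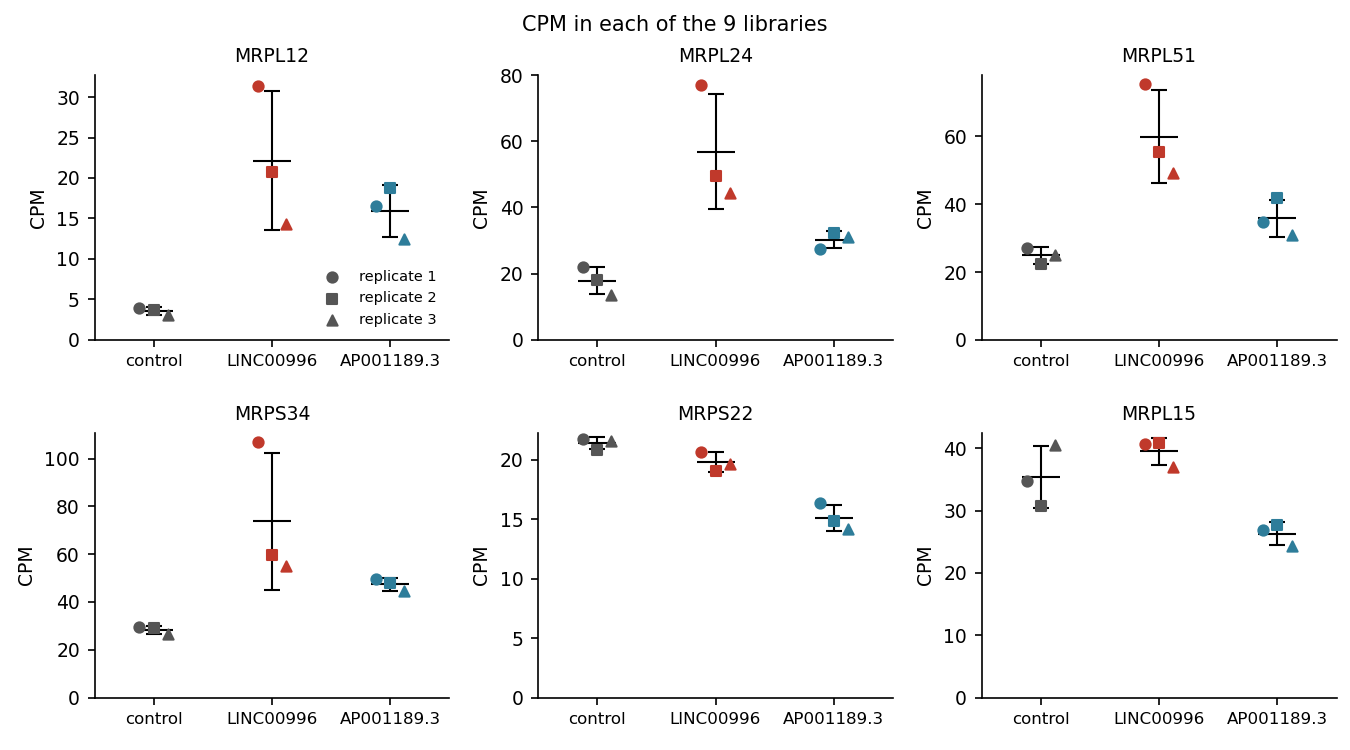
CPM of 6 members in each library, by group, with the mean and SD (n = 3) as black bars and the replicate number as the symbol. MRPL12, MRPL24, MRPL51 and MRPS34 are above the control group in all 6 libraries of the lncRNA groups with the highest point in LINC00996 replicate 1, while MRPS22 and MRPL15 are below it in the 3 AP001189.3 libraries.

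Among the proteins of the large subunit with bacterial counterparts, 16 of 30 were higher in LINC00996 cells, with a median log2 fold change of 0.41, where 10.7% of all genes were higher. Without replicate 1 there were 19 with a median of 0.34, where 15.9% of all genes were higher. MRPL24 had the next largest rise after MRPL12. It was at 21.9, 18.2 and 13.6 CPM in control cells, 76.9, 49.4 and 44.5 CPM in LINC00996 cells and 27.5, 32.4 and 31.1 CPM in AP001189.3 cells. The 3 groups did not overlap, and their order was LINC00996, AP001189.3, control. Its log2 fold change was 1.67 for LINC00996 (SE 0.214, adjusted p = 0.000249, edgeR) and 1.39 without replicate 1. MRPL24 shares no exonic base with another gene. Of the 5 stalk proteins, MRPL12 and MRPL11 passed the test, the latter with a log2 fold change of 0.67 (adjusted p = 0.00397, and 0.55 without replicate 1), while MRPL10 (0.09), MRPL53 (−0.08) and MRPL54 (0.37) did not.

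Among the proteins of the large subunit found in mitochondria alone, 4 of 21 were higher, against 10.7% of all genes, with a median of 0.20. Without replicate 1 of the LINC00996 group 5 were higher and 2 lower, with a median of 0.15, against 15.9% and 17.3% of all genes. This list holds MRPS30 and MRPS18A, which sit in the large subunit despite their names. MRPL51 stood out by its adjusted p. Its level was 27.2, 22.4 and 25.1 CPM in control cells, 75.4, 55.4 and 49.1 CPM in LINC00996 cells and 34.9, 41.8 and 30.8 CPM in AP001189.3 cells. The groups did not overlap. For LINC00996 the log2 fold change was 1.27 (SE 0.156, adjusted p = 0.000178, edgeR), and 1.07 without replicate 1. Of its exonic bases 31.3% are shared with NCAPD2 on the opposite strand, and the reads of the pair cannot be told apart where the counting did not use strand.

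In the small subunit, 6 of 15 tested proteins with bacterial counterparts were higher (median 0.30), against 10.7% of all genes. Of those found in mitochondria alone, 4 of 10 were higher (median 0.24). Without replicate 1 of the LINC00996 group the counts were 6 (median 0.32) and 5 (median 0.25), against 15.9% of all genes. MRPS34, of the latter, was at 29.6, 29.1 and 26.5 CPM in control cells, 107, 59.7 and 54.9 CPM in LINC00996 cells and 49.4, 48.1 and 44.4 CPM in AP001189.3 cells. Its groups did not overlap, although the LINC00996 libraries spread widely (73.8 ± 28.7, SD, n = 3) and replicate 1 was far above the others. The log2 fold change was 1.38 (SE 0.215, adjusted p = 0.00107, edgeR), and 1.01 without that replicate. MRPS16 and MRPS5 are parts of the small subunit with bacterial counterparts. MRPS16 rose by 0.69 from 57.6 ± 3.01 to 92.9 ± 9.72 CPM (SD, n = 3, adjusted p = 0.000795, edgeR), and MRPS5 by 0.68 from 31.7 ± 2.62 to 50.9 ± 4.31 CPM (adjusted p = 0.00121, edgeR). Each was above the control libraries in all 3 LINC00996 libraries, and without replicate 1 the rises were 0.60 and 0.61. MRPS36, now placed in a metabolic enzyme complex and left out of both subunit lists, had a log2 fold change of 0.27 and did not pass the test.

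Large and small subunit were then set side by side. In the LINC00996 group 20 of 49 MRPL and 10 of 28 MRPS genes were higher, against 10.7% of all genes, with medians of 0.32 and 0.25. Counted by position in the ribosome, with MRPS30 and MRPS18A in the large subunit, they were 20 of 51 and 10 of 25, with a median of 0.29 in each. Without replicate 1 of the LINC00996 group, 24 MRPL and 12 MRPS genes were higher and 1 of each was lower. Of all genes, 15.9% were then higher and 17.3% lower. The difference between the MRPL and MRPS medians was 0.07, and it was −0.0015 without replicate 1 of the LINC00996 group. Summed over genes, MRPL was at 1226, 1254 and 1319 CPM in control cells, 1833, 1570 and 1529 CPM in LINC00996 cells and 1321, 1357 and 1323 CPM in AP001189.3 cells. MRPS summed to 873, 883 and 917, then 1292, 1129 and 1090, and then 915, 921 and 922 CPM. The LINC00996 libraries were thus above all others in each family. The ratio of MRPL to MRPS was 1.42 ± 0.0167 in control cells, 1.40 ± 0.0139 in LINC00996 cells and 1.45 ± 0.0204 in AP001189.3 cells (SD, n = 3). Control values overlapped those of both other groups. The lncRNA groups did not overlap each other in this ratio, at 1.39 to 1.42 with LINC00996 and 1.43 to 1.47 with AP001189.3. No test was made on these sums.

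**Figure D3:**
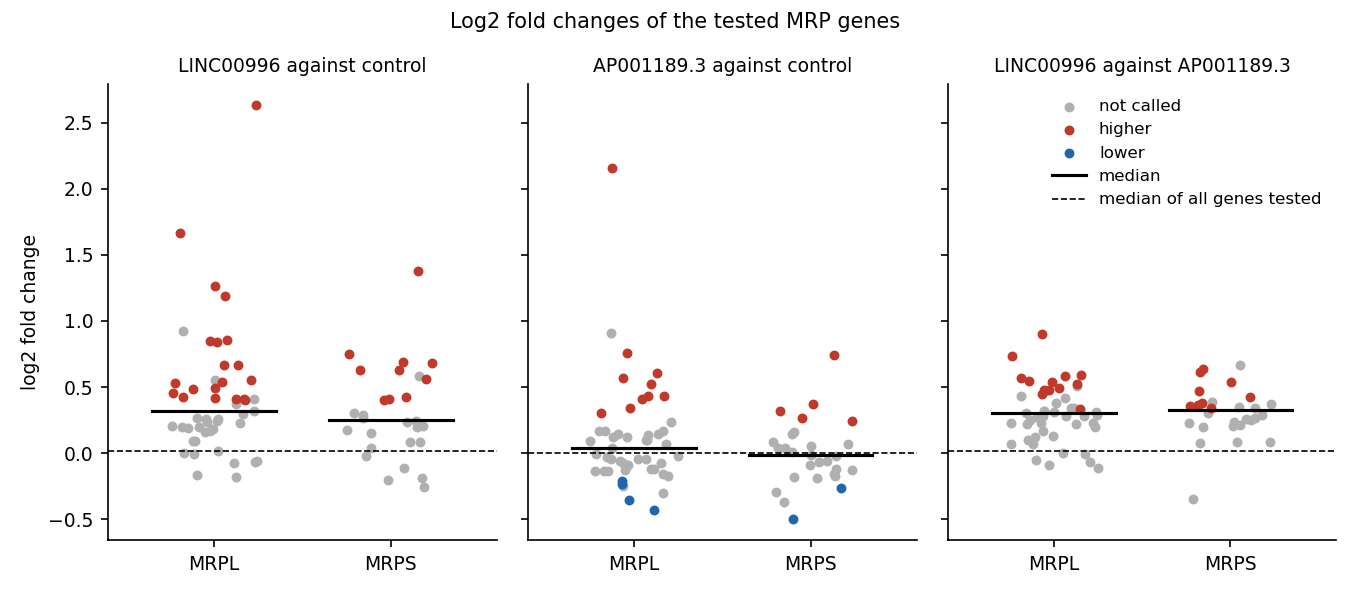
Log2 fold changes of the 77 tested members by family (MRPL or MRPS, horizontal axis) in the 3 comparisons, red where higher and blue where lower at an adjusted p under 0.05, with the median of the family as a bar and that of all genes as a dashed line. The medians lie above that of all genes in both comparisons that hold the LINC00996 group and close to it for AP001189.3 against control.

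The second comparison asked the same of AP001189.3. Of 77 members, 15 were higher (19.5%, against 11.4% of the 16023 genes tested) and 6 were lower (7.79%, against 8.49%), so that the share that fell was close to that of all genes. The other 56 did not pass the test. The median log2 fold change was −0.01 for the members and −0.00 for all genes. The groups did not overlap in 21 members that were higher (27.3%, against 18.5%) and in 13 that were lower (16.9%, against 16.7%). MRPL had 10 higher and 4 lower of 49 with a median of 0.04, and MRPS 5 higher and 2 lower of 28 with a median of −0.02. When all 9 libraries shared 1 estimate of the spread, 1 member was higher (MRPL12) and 1 lower (MRPS22), against 2.08% and 0.562% of all genes. The calls below, other than for those 2, were lost in that fit. With the offset for GC content, 9 were higher and 3 lower, against 7.36% and 7.50% of all genes. With an offset for gene length 12 were higher and 10 lower, against 9.68% and 8.91%.

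By list, 7 higher and 3 lower of 30 belonged to the large subunit proteins with bacterial counterparts, 3 and 2 of 21 to those found in mitochondria alone, 3 and 0 of 15 to the small subunit proteins with bacterial counterparts (0 lower by DESeq2 too, 2 lower at an unadjusted p under 0.05), and 2 and 1 of 10 to those found in mitochondria alone. The shares of all genes were 11.4% and 8.49%, and nothing is read from counts this small. After MRPL12, the rises with the smallest adjusted p were those of MRPS34 (0.74, SE 0.0783, adjusted p = 1.74e-07, edgeR) and MRPL28 (0.61, SE 0.0741, adjusted p = 1.28e-06). MRPL28, of the large subunit, was at 34.3, 33.1 and 31.1 CPM in control cells, 80.8, 50.1 and 45.4 CPM in LINC00996 cells and 49.3, 52.3 and 48.5 CPM in AP001189.3 cells. It was above the control group in all 6 libraries. MRPL51 (0.52, adjusted p = 0.000675, edgeR), MRPL34 (0.56, adjusted p = 0.000832) and MRPL17 (0.30, adjusted p = 0.000799) rose as well. MRPL17 was at 63.7 ± 1.32 CPM in control cells and 78.4 ± 2.21 CPM in AP001189.3 cells (SD, n = 3). The largest value that did not pass the test, picked out after the values were seen, was that of MRPL23 (0.91, adjusted p = 0.215).

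The 6 members that fell were MRPS22, MRPL15, MRPS30, MRPL42, MRPL1 and MRPL19. MRPS22, a small subunit protein found in mitochondria alone, was at 21.8, 20.8 and 21.6 CPM in control cells, 20.7, 19.0 and 19.6 CPM in LINC00996 cells and 16.4, 14.8 and 14.2 CPM in AP001189.3 cells. It fell by 0.50 on the log2 scale (SE 0.102, adjusted p = 0.000844, edgeR), and the AP001189.3 libraries lay below all 6 others. MRPL15, on chromosome 8, was at 34.8, 30.7 and 40.6 CPM in control cells and 26.9, 27.8 and 24.2 CPM in AP001189.3 cells, and fell by 0.43 (adjusted p = 0.00188, edgeR). Those of MRPL1, which forms the stalk where tRNA leaves (fell by 0.35, adjusted p = 0.0325), MRPS30 (by 0.26, adjusted p = 0.0101), MRPL42 (by 0.24, adjusted p = 0.0308) and MRPL19 (by 0.21, adjusted p = 0.0492) were smaller. Without any 1 of the 6 libraries, the number called lower ranged from 3 to 9, and MRPS22, MRPL15 and MRPS30 were called each time.

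Both comparisons used the same 3 control libraries, so their values are only set side by side. Calls shared by both are not given as a result for that reason.

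The third comparison set the lncRNAs against each other, without the control libraries. Of 77 members, 22 were higher in LINC00996 cells (28.6%, against 9.38% of the 16095 genes tested) and 0 were lower (against 12.1%), with 37 higher and 0 lower at an unadjusted p under 0.05, and 25 higher and 0 lower by DESeq2. The median was 0.30 for the members and 0.02 for all genes, and 71 of 77 were above 0. In 40 members the groups did not overlap, all of them higher with LINC00996 (51.9%, against 19.5%), and 0 were lower in this way (against 19.7%). With LINC00996 replicate 1 left out these were 45 (58.4%, against 30.2%) and 5 (6.49%, against 29.8%). MRPL had 13 of 49 higher with a median of 0.30, and MRPS 9 of 28 with a median of 0.32. Without LINC00996 replicate 1 these were 20 with a median of 0.19 and 15 with a median of 0.28. The number of members called higher was 35 without replicate 1 of the LINC00996 group and 14 without replicate 2, where 4.80% of all genes were called higher. It was 10, 9 or 13 without replicate 1, 2 or 3 of the AP001189.3 group, against 3.62%, 4.15% or 3.93% of all genes. With LINC00996 replicate 1 left out the median was 0.20, the share of all genes called higher was 20.3%, and MRPS18A was called lower (fell by 0.54, SE 0.135). Scaled by library size alone, 31 members were higher and 0 lower, against 13.2% and 10.4% of all genes. With the offset for GC content 44 members were higher, against 21.0% of all genes.

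By adjusted p, the first 6 members were MRPL3, MRPL15, MRPS15, MRPS16, MRPS27 and MRPL24. MRPL3, a large subunit protein with a bacterial counterpart, was at 58.7, 64.1 and 61.2 CPM in LINC00996 cells, 37.4, 42.7 and 42.1 CPM in AP001189.3 cells and 42.8, 43.7 and 47.4 CPM in control cells. It was 0.59 higher on the log2 scale (SE 0.0996, adjusted p = 0.00162, edgeR), and the LINC00996 libraries lay above all 6 others. MRPS15 was at 36.1, 31.8 and 30.0 CPM against 22.3, 20.4 and 21.0 CPM (0.61, adjusted p = 0.00268, edgeR), and MRPS16 differed by 0.54. For MRPL15 the difference was 0.58, with 39.5 ± 2.16 CPM in LINC00996 cells, 26.3 ± 1.84 in AP001189.3 cells and 35.4 ± 4.98 in control cells (SD, n = 3). MRPS27, a protein of the small subunit with RNA-binding repeats, was 0.47 higher (SE 0.092, adjusted p = 0.00381), and MRPL24 was 0.90 higher (0.63 without replicate 1). Without that library the differences were 0.62 for MRPL3, 0.56 for MRPL15, 0.54 for MRPS15, 0.46 for MRPS16 and 0.52 for MRPS27.

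The relation to base composition differed between libraries. For each library, log2 CPM less the 9-library mean was correlated with the GC content of the transcript over 16552 genes. Spearman's rho was −0.01, −0.24 and −0.28 in control cells, 0.43, −0.24 and −0.42 in LINC00996 cells and 0.35, 0.22 and 0.21 in AP001189.3 cells. The AP001189.3 libraries were all above the control libraries in this measure, while LINC00996 replicate 1 was the highest of all and replicate 3 the lowest. Among the 77 members the log2 fold change had a Spearman correlation with GC content of 0.56 for AP001189.3 against control, 0.35 for LINC00996 against control and −0.05 for LINC00996 against AP001189.3. Members called higher for AP001189.3 had a median GC content of 55.4%, those called lower 42.7% and those not called 47.6%. For LINC00996 the members called higher had a median of 52.9% and the rest 47.2%. With the offset for GC content, all 30 calls for LINC00996 against control were kept and 12 were added, while the share of all genes called higher went from 10.7% to 19.3%. In the same setting 12 of 21 calls for AP001189.3 were kept.

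**Figure D4:**
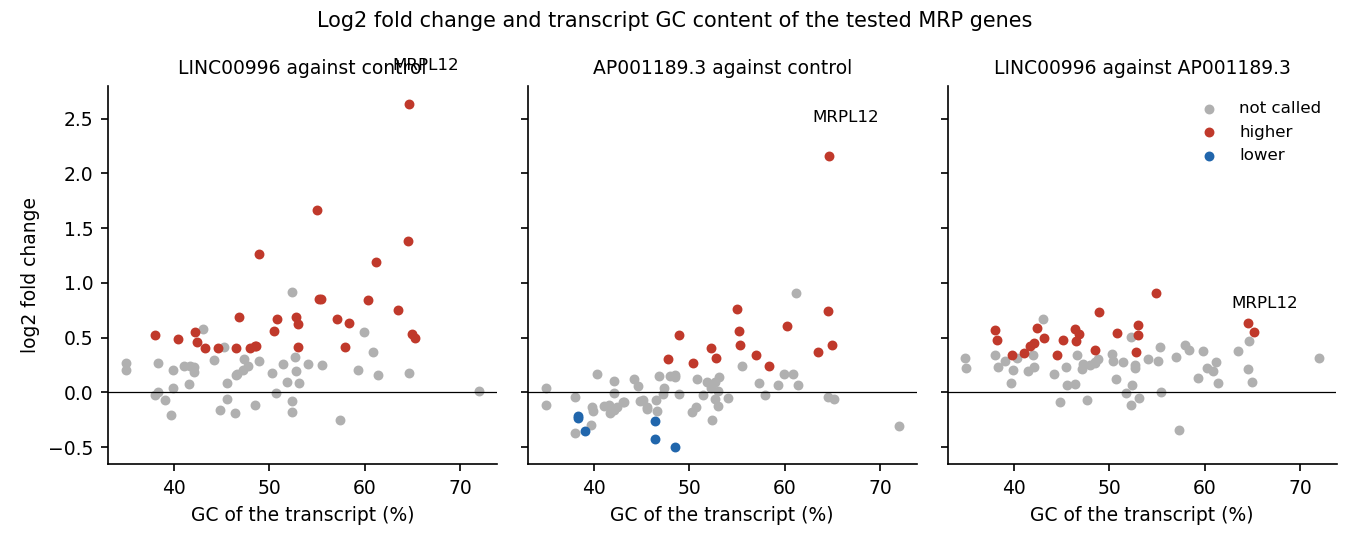
Log2 fold change of the 77 tested members (vertical axis) against the GC content of the transcript in percent (horizontal axis) in the 3 comparisons, red where higher and blue where lower at an adjusted p under 0.05. For AP001189.3 against control the members called lower lie between 38.3% and 48.5% GC and those called higher between 47.7% and 64.9%, so that the ranges overlap.

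Medians per library also placed the LINC00996 libraries above the others. The median log2 CPM of the members, less the 9-library mean, was −0.17, −0.11 and −0.03 in control cells, 0.33, 0.14 and 0.11 in LINC00996 cells and −0.10, −0.08 and −0.09 in AP001189.3 cells. LINC00996 replicate 1, which stood apart in GC relation, was the highest. The other 2 LINC00996 libraries were also above all control and AP001189.3 libraries. The part of the GC relation in these medians was not tested. The median of all genes was between 0.0053 and 0.015 in every library.

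**Figure D5:**
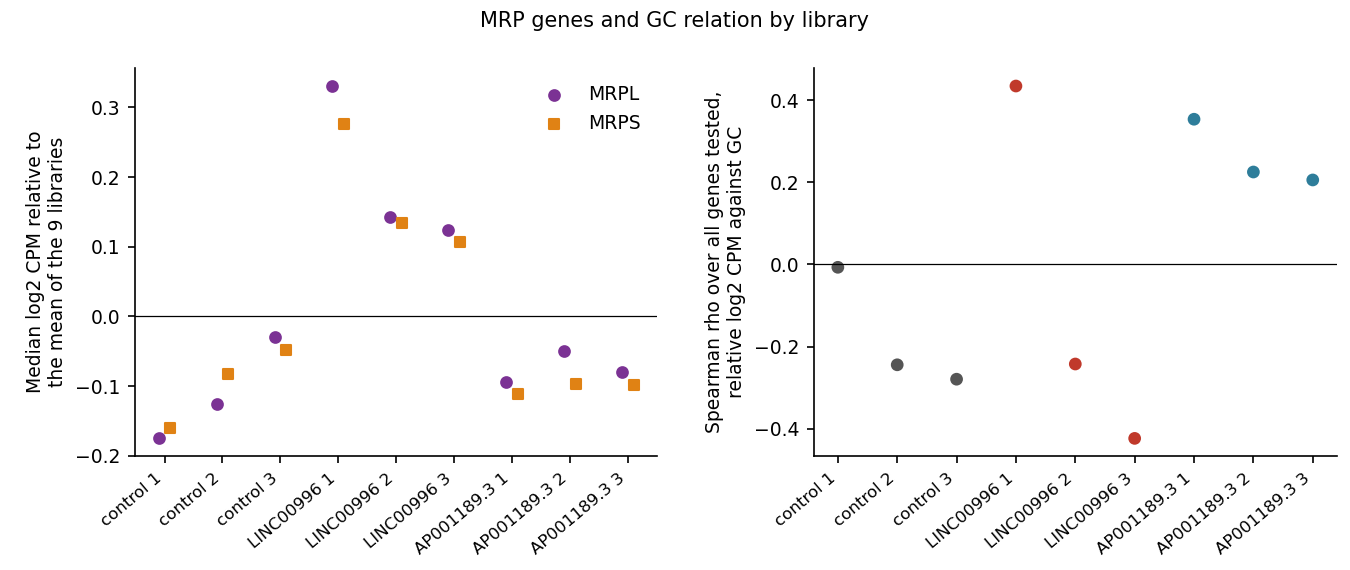
Left, median log2 CPM of MRPL (purple) and MRPS (orange) genes by library, less the 9-library mean. Right, Spearman rho over 16552 genes between relative log2 CPM and GC content in the same libraries, grey for control, red for LINC00996 and blue for AP001189.3. All 3 LINC00996 libraries lie above the others on the left, while on the right replicate 1 of that group lies far from replicates 2 and 3.

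Gene length was compared too, since short genes as a class had higher fold changes. In LINC00996 against control, other protein-coding genes over 1000 and up to 1500 bases had a median of 0.29 on the log2 scale, 26.4% were called higher, and the 13 members of that length had a median of 0.37. Over 5000 bases, other genes had a median of −0.05 with 7.78% called higher, and the 11 members a median of 0.21 with 4 called higher. Over 2000 and up to 3000 bases, the medians were 0.12 for other genes and 0.41 for the 20 members. Over 1500 and up to 2000 bases they were closer, 0.18 for other genes with 22.0% called higher and 0.25 for 16 members with 4 called higher. Over 3000 and up to 5000 bases they were 0.05 for other genes and 0.29 for 16 members. Of these members 5 were called higher, against 13.2% of the other genes. The 1 member of at most 1000 bases was at 0.25 and not called, where other genes had a median of 0.28. For AP001189.3 against control, members over 5000 bases had a median of −0.18 and other genes −0.04, and members over 1500 and up to 2000 bases −0.01 and other genes 0.06. Over 1000 and up to 1500 bases they were at 0.04 and other genes at 0.07, over 2000 and up to 3000 at 0.02 and 0.08, over 3000 and up to 5000 at 0.04 and 0.02, and the 1 shorter member was at 0.24 and other genes at 0.18. Between the lncRNAs, the members of the 5 classes over 1000 bases had medians from 0.28 to 0.34 and other genes from −0.01 to 0.19, while the 1 shorter member was at 0.0029 and other genes at 0.06. The median length of all members was 2539 bases.

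Genes around the mitoribosome were read from lists. Among 5 mitoribosomal proteins under other names (DAP3, CHCHD1, AURKAIP1, PTCD3 and GADD45GIP1), AURKAIP1 was higher with LINC00996 (0.96, adjusted p = 0.00798, edgeR) and with AP001189.3 (0.62, adjusted p = 0.000148), CHCHD1 was higher with AP001189.3 (0.32, adjusted p = 0.0101) and PTCD3 was lower with it (fell by 0.30, adjusted p = 0.000556). GADD45GIP1 was called lower with LINC00996 (fell by 0.56, adjusted p = 0.00668, edgeR) once LINC00996 replicate 1 was left out, and is named after its value was seen. Of 18 mitochondrial translation factors and related genes, 5 were higher and 0 lower with LINC00996, 1 was higher and 2 lower with AP001189.3, and 4 were higher and 0 lower between the lncRNAs. The share of all genes called higher was 10.7%, 11.4% and 9.38% in these comparisons. In the counts of 0 given here, no gene was lower at an unadjusted p under 0.05 or by DESeq2. TUFM, the elongation factor that brings tRNA to the ribosome, was at 144, 148 and 146 CPM in control cells and 240, 190 and 173 CPM in LINC00996 cells (0.46, adjusted p = 0.0140, edgeR). TACO1, which activates translation of a cytochrome oxidase subunit, rose in both comparisons with control (0.46 and 0.37), and TRMU, which modifies mitochondrial tRNA, rose with LINC00996 (0.35). With LINC00996, the calls of TUFM and TACO1 were lost without any 1 of the control replicates, that of TRMU with no filter and in 5 of 6 fits that left out 1 library, and that of AURKAIP1 without control replicate 3. With LINC00996 replicate 1 left out the values were 0.63 for AURKAIP1, 0.32 for TUFM, 0.31 for TACO1 and 0.34 for TRMU, and 8 of the 18 were called higher, where 15.9% of all genes were. Between the lncRNAs 10 of the 18 were then called higher, against 20.3% of all genes. GUF1 (fell by 0.30) and the initiation factor MTIF2 (fell by 0.22) were lower with AP001189.3, calls lost in 4 and in all 6 of the fits that left out 1 library.

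Of 27 genes for mitoribosome assembly and rRNA modification, 7 were higher and 0 lower with LINC00996, against 10.7% and 11.6% of all genes. With AP001189.3, 2 were higher and 2 lower, shares that did not exceed those of all genes, 11.4% and 8.49%. Between the lncRNAs 4 were higher, against 9.38% of all genes, and 0 lower. At an unadjusted p under 0.05 and by DESeq2, 0 were lower in both comparisons that hold LINC00996. Without LINC00996 replicate 1, however, 7 were higher and 1 lower between the lncRNAs, against 20.3% and 21.3% of all genes. With LINC00996 the smallest adjusted p belonged to MRM1, an rRNA methyltransferase (0.81, adjusted p = 0.0115, edgeR), MALSU1, which acts late in large subunit assembly (0.56, adjusted p = 0.0143), and MTERF4 (0.45, adjusted p = 0.0213). The first 2 calls were lost without control replicate 1 or 2, and that of MTERF4 in 4 of 6 fits that left out 1 library. With LINC00996 replicate 1 left out the values were 0.58 for MRM1, 0.43 for MALSU1 and 0.42 for MTERF4. In that fit 8 of the 27 were called higher, against 15.9% of all genes. With AP001189.3 they belonged to MRM1 (0.48), GTPBP10 (fell by 0.28) and RCC1L (0.20), the last 2 lost in 5 of 6 such fits each. The calls for AP001189.3 named so far from these lists were lost in the fit of all 9 libraries.

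Of 17 genes for mitochondrial transcription and mRNA stability, 0 were called by edgeR with LINC00996 (median 0.02, 2 at an unadjusted p under 0.05, 0 by DESeq2) and 1 was lower with AP001189.3. With LINC00996 replicate 1 left out, 3 were higher and 1 lower with LINC00996, against 15.9% and 17.3% of all genes. The call with AP001189.3 was that of LRPPRC, which stabilises mitochondrial mRNA, at 292, 312 and 336 CPM in control cells and 246, 261 and 262 CPM in AP001189.3 cells (fell by 0.29, adjusted p = 0.000356, edgeR). This call too was lost in the fit of all 9 libraries. Between the lncRNAs 2 were higher and 0 lower by edgeR and DESeq2 alike, against 9.38% and 12.1% of all genes, with 1 lower at an unadjusted p under 0.05. They were 6 and 2 without LINC00996 replicate 1, against 20.3% and 21.3%. Of 10 nuclear factors known for promoters of mitochondrial genes, 0 were called by edgeR with LINC00996 (median −0.04, 0 at an unadjusted p under 0.05, 0 by DESeq2). With AP001189.3 the coactivator PPARGC1A was lower (fell by 0.61, adjusted p = 0.000856, edgeR), at 18.2, 18.1 and 19.8 against 14.7, 9.69 and 12.4 CPM, and MYC was higher (0.25, adjusted p = 0.00445). Between the lncRNAs MYC was lower with LINC00996 (fell by 0.39, adjusted p = 0.0115, and by 0.38 without LINC00996 replicate 1). Without that library 3 of the 10 were higher and 2 lower between the lncRNAs, against 20.3% and 21.3% of all genes. The call of PPARGC1A held in the fit of all 9 libraries, and that of MYC against control did not.

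The rRNAs of the mitoribosome carry no long poly-A tail, and the libraries were poly-A selected, so their levels were read as they stood. MT-RNR2, the rRNA of the large subunit, had a mean of 8064 ± 328 CPM in control cells, 8478 ± 856 in LINC00996 cells and 8164 ± 668 in AP001189.3 cells (SD, n = 3). MT-RNR1, of the small subunit, was at 1035 ± 220, 1137 ± 280 and 1313 ± 46.6 CPM. Neither passed the test in any comparison, and the log2 fold changes were between −0.21 and 0.34. With 1 library left out, 2 calls appeared. MT-RNR1 was 0.18 higher for AP001189.3 against control without control replicate 3 (adjusted p = 0.00908, edgeR), and MT-RNR2 was 0.15 higher for LINC00996 against control without LINC00996 replicate 1 (adjusted p = 0.0167). The direction of some of these differences turned in other settings.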

How the data were processed

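The authors extracted RNA from A549 cells transfected with jetPRIME, selected poly-A mRNA, sequenced it as 150 bp paired reads, aligned the reads with HISAT2 2.0.5 and counted them per gene with featureCounts 1.5.0-p3. The submitters' processing notes name GRCh38. The authors deposited raw counts without normalization, and all 9 columns of counts were used. FPKM values, also deposited, were not used. Whether counting used strand is not given in the sources used here. Gene positions equal those of GENCODE 29, and the exon unions of that annotation equal the deposited lengths of all 78 members.

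Libraries were grouped by the plasmid in their labels, 3 in each group. The labels do not say that the libraries came from separate cultures, so p-values measure the spread between these libraries, which may be technical. In each of 3 comparisons, 6 libraries were tested with edgeR 4.0.16 in R 4.3.3 (filterByExpr, TMM, robust quasi-likelihood test), and a gene was called where its p, adjusted by Benjamini-Hochberg over all genes tested, was under 0.05. CPM were scaled by TMM over the 9 libraries. The SE of a log2 fold change is its size divided by the root of F. GC content is that of the longest protein-coding transcript. The test was also run on simulated counts with a log2 change of 1 in 200 genes. For LINC00996 against control (15821 genes) it recovered 77.5%, with 6.06% of 165 calls on unchanged genes. For AP001189.3 against control (15794 genes) it recovered 85.5%, with 1.72% of 174 calls on unchanged genes. The simulated counts held no library that stood apart and no shift with GC content, so these rates cannot be carried over to the calls here.

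The members and the lists of other genes were chosen with earlier results of these data known. Named were MRPL12, in each comparison up to 6 members that rose and 6 that fell with the smallest adjusted p among those called whose groups did not overlap, the 2 highest and 2 lowest MRPL and MRPS genes per kilobase in control cells, both mitochondrial rRNAs, and up to 3 called genes of each other list for each comparison with control. Alternatives were DESeq2 1.42.0, library size alone, no filter, a minimum of 10 counts per library, 1 fit over all 9 libraries, a replicate block, an offset for gene length, an offset for GC content (loess, span 0.75, added after the data were seen), and leaving out each library.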

Additional observations from a re-analysis of the deposited data

How the results depend on the processing

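The number of members called higher in LINC00996 cells against control was within 1.5 times of 30 in every setting that kept all libraries, and ranged from 14 to 36 with 1 library left out, with 0 to 2 lower. For AP001189.3 against control, 15 higher became 1 with all 9 libraries in 1 fit and 9 with the GC content offset, and 6 lower became 1 with all 9 libraries, 10 with the gene length offset, 3 with the GC content offset and 3 to 9 with 1 library left out. In that comparison all 9 libraries gave 344 genes higher and 93 lower over all genes, against 1819 and 1361. For LINC00996 against AP001189.3, 22 higher became 44 with the GC content offset and 9 to 35 with 1 library left out, with 0 to 1 lower. The median of the members became −0.066 with the gene length offset for AP001189.3 against control, and ranged from 0.20 to 0.36 with 1 library left out for LINC00996 against AP001189.3. The difference between the MRPL and MRPS medians was 0.07 for LINC00996 against control, 0.019 with the gene length offset, 0.026 with the GC content offset and −0.0015 to 0.10 with 1 library left out. For AP001189.3 against control it was 0.052, 0.034 with a replicate block, −0.012 with the gene length offset and 0.0070 to 0.13 with 1 library left out, and for LINC00996 against AP001189.3 it was −0.023, −0.0017 with no filter, −0.037 with the gene length offset, 0.017 with the GC content offset and −0.089 to −0.013 with 1 library left out. The cause of these changes was not tested. MT-RNR1 against control ranged from −0.033 to 0.32 for LINC00996 with 1 library left out. MT-RNR2 was at −0.0073 with library size alone and −0.086 with the gene length offset for AP001189.3 against control, and ranged from −0.053 to 0.051 there and from −0.0072 to 0.14 between the lncRNAs with 1 library left out. Over the named genes, 592 values kept their direction and their side of the threshold, 96 lost the call, 5 gained it and 7 turned in direction. Leaving out 1 library leaves a group of 2, and a lower count then also follows from fewer libraries. Deviations of same-numbered replicates from their groups correlated at −0.02 to 0.15. Spearman's rho with GC content fell from replicate 1 to replicate 3 in each group. Whether the numbers mark libraries handled together was not tested, and the main test did not pair them. With a replicate block, 34 members were higher for LINC00996 against control (13.6% of all genes), 16 were higher and 7 lower for AP001189.3 against control (12.2% and 9.46%), and 24 were higher between the lncRNAs (10.3%). For MRPS24, tested with no filter, no change was detectable at this depth.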
